A study of Mus musculus with 40 samples.

Results

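The genes described here are 10 members of the BCL2 family of survival and death regulators: Bcl2, Bcl2l1, Mcl1, Bcl2a1b and Bcl2a1d among the survival genes, Bcl2l11, Bid and Pmaip1 among the BH3-only genes, and Bax and Bak1, the pore formers. They were taken by gene symbol from a table of 27179 genes, and each symbol was found once. mRNA was measured by RNA-seq in bone marrow-derived macrophages (BMDMs), cells grown from the marrow of adult male mice for 7 days in medium with M-CSF. WT and full-body Cpeb4-/- mice, all of a mixed C57BL/6J and 129 background, gave cells that were left untreated or exposed to 10 ng/ml of bacterial lipopolysaccharide (LPS, from E. coli 0111:B4) for 1, 3, 6 or 9 hr. There were 4 mice of each genotype, each mouse gave all 5 times, and the 40 libraries were made in 2 batches with 2 mice of each genotype in each. No cage held mice of both genotypes, so genotype and cage cannot be told apart.

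Proteins of the BCL2 family decide at the mitochondrial outer membrane whether a cell dies. The guardians BCL2, BCL-XL (Bcl2l1), MCL1 and A1 (the Bcl2a1 genes) hold the pore formers BAX and BAK in check, and BH3-only proteins such as BIM (Bcl2l11), BID and NOXA (Pmaip1) bind the guardians or activate the pore formers, after which cytochrome c is released and caspases are switched on. A1 and MCL1 are short-lived proteins known for keeping activated myeloid cells alive, and BIM is known for the death of macrophages and lymphocytes deprived of growth factor. CPEB4, the protein removed in the knockout, binds cytoplasmic polyadenylation elements (CPEs) in the 3′ ends of mRNAs, where AU-rich elements (AREs) bound by other factors are also found.

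The values are the authors' regularized log (rlog) values, on a log2 scale and shrunken for genes with few reads, so a difference of 1 is a doubling; the number of reads behind each value is not known from the table. Replicate libraries correlated with r of 0.9982 to 0.9994 over all genes, 6395 of which were 0 in every library. So wide a span of levels raises r, which therefore says little about differences as small as those between genotypes. Cpeb4, the targeted gene, did not separate the genotypes at every time. At 6 hr it was 10.42, 10.62, 10.67 and 10.09 in the WT mice and 9.45, 8.74, 8.87 and 9.66 in the Cpeb4-/- mice (difference −1.27; exact permutation test, two-sided, p = 0.0286, which no comparison of 4 with 4 mice can go below), whereas the groups overlapped untreated and at 1, 3 and 9 hr. The value covers reads of the whole gene, and which exons the mutant allele lacks is not given in the sources used here, so remaining Cpeb4 reads do not test the labels. All 8 macrophage markers passed the filter on low values (mean rlog of at least 2.32), with a summed level (log2) of 18.98 to 19.49 in WT and 18.65 to 19.14 in Cpeb4-/- libraries. Of 9 neutrophil markers 4 passed it, without Ly6g, Mpo or Elane (sum 6.17 to 8.13 and 6.39 to 8.15), and of 5 T cell markers 1, without Cd3d, Cd3e or Cd3g (5.10 to 8.53 and 4.99 to 8.00). Of 3 dendritic cell markers 1 passed (Zbtb46; sum 2.79 to 4.10 and 2.87 to 4.94), and of 5 fibroblast markers 1 (Dcn; sum 2.97 to 4.66 and 3.09 to 6.07). No B cell, NK cell, basophil or erythroid marker passed it. Among the NK cell markers only Klrb1c lay apart between genotypes before 6 hr (mean 1.01 in WT and 2.76 in Cpeb4-/- untreated cells), while Ncr1 overlapped and Gzma did not exceed −2.16 in any library. In bulk RNA, fewer cells of a kind and less RNA per cell cannot be told apart.

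To follow the family through the LPS response, each time was compared with untreated cells in WT mice (limma, 13100 genes, Benjamini-Hochberg adjusted p under 0.05). Bcl2a1b, Bcl2a1d, Mcl1 and Bcl2l1 rose at all 4 times and Bak1 from 3 hr on, except that Mcl1 at 3 hr was lower than untreated after quantile normalization. Bcl2 fell from 3 hr on, Bcl2l11 and Pmaip1 rose at 1 hr and ended below the untreated level, Bid fell and then rose, and Bax did not pass the test at any time on the deposited scale. In counts, 6 of the 10 members rose at 1, 3, 6 and 9 hr alike, where 17.3%, 32.5%, 38.7% and 35.9% of all genes tested rose. Falls were called for 1 member at 1 hr and for 3 at 3, 6 and 9 hr, where 16.6%, 35.3%, 39.2% and 35.6% of all genes fell. The median difference of the members was 0.83, 0.34, 0.68 and 0.43 at the 4 times, and that of all genes tested was 0.0245, −0.0212, −0.0196 and −0.0044. The direction of change depended on the scaling for Mcl1, Bcl2l1, Bak1 and Bax in at least 1 comparison. After quantile normalization, rises and falls numbered 6 and 2 at 1 hr, 5 and 5 at 3 hr, and 5 and 4 at 9 hr. The genes that differ are named with their values below. The shares of all genes that rose or fell after quantile normalization are not given, here or below. Member counts on that scale therefore stand without them.

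**Figure D1:**
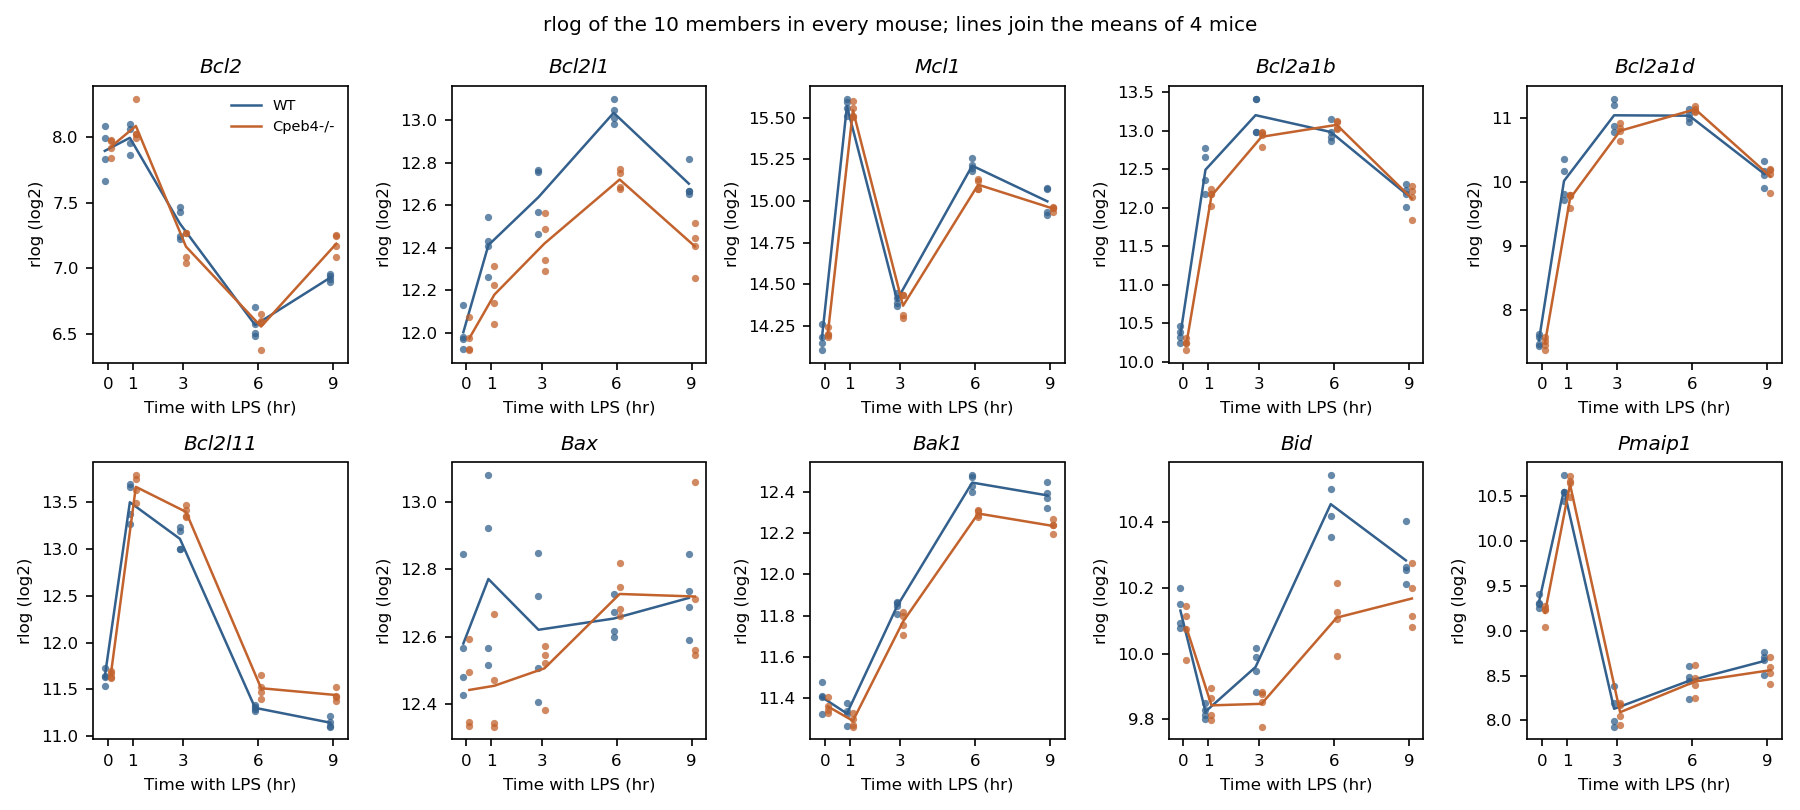
rlog (log2, y axes differ between panels) of the 10 members against the time with LPS in hr, with untreated cells at 0 hr. Points are single mice (4 WT in blue, 4 Cpeb4-/- in orange, set slightly apart), and lines join the means. Bcl2a1d climbs from 7.43 to 7.63 in the untreated WT mice to 10.78 to 11.30 at 3 hr, while Bax stays between 12.41 and 13.08 in all WT libraries.

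The A1 genes showed the largest rises of the family. Mouse carries several near-identical copies, of which Bcl2a1b (chr9:89199273-89207838) and Bcl2a1d (chr9:88723288-88731850, mm10) are members here. Bcl2a1d read 7.43, 7.47, 7.58 and 7.63 in untreated WT mice, 9.82, 10.16, 9.72 and 10.36 at 1 hr and 11.20, 10.78, 10.87 and 11.30 at 3 hr, and every mouse with LPS lay above every untreated mouse. The differences from untreated were 2.49 ± 0.13 (SE, n = 4 mice) at 1 hr and 3.51 ± 0.13 at 3 hr (11.4-fold, adjusted p = 1.83e-15), and the level fell by 0.91 between 6 and 9 hr (adjusted p = 5.99e-06). Bcl2a1b read 10.33, 10.39, 10.25 and 10.46 untreated and 13.42, 12.99, 12.99 and 13.42 at 3 hr, a rise of 2.85 ± 0.12 (7.19-fold, adjusted p = 1.62e-14), and at 9 hr it was still 1.82 above untreated. Levels at 3 and 6 hr overlapped for both copies. Leaving out mouse 88 made the step of Bcl2a1b from 3 to 6 hr, −0.22 with all mice, a called fall of 0.35 (adjusted p = 0.0349), as did quantile normalization (−0.42, adjusted p = 0.00508).

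How much of each rise belongs to which copy is uncertain, because most of their sequence is shared. Of the 768 windows of 50 bases in the Bcl2a1b transcript, 20.8% occurred in no other gene, and of the 814 in Bcl2a1d 20.5%; 54.3% of the Bcl2a1d windows were also in Bcl2a1b and 64.0% in Bcl2a1a, another copy (GENCODE M21 transcripts). The coding sequences of Bcl2a1b and Bcl2a1d are 519 bases each and differ at 6. How reads that fit several places were counted is not given in the sources used here, so the values of these genes may mix copies. Bcl2a1c, a more distant copy, had 89.6% of its windows to itself. It rose from 3.81 ± 0.18 (SD, n = 4) to 6.54 ± 0.25 between untreated WT cells and 3 hr (difference 2.73 ± 0.17, adjusted p = 1.21e-11). Over the 10 group means it was the gene outside the members most like Bcl2a1b (r = 0.995) and Bcl2a1d (r = 0.998). However, 3.8% of the windows of Bcl2a1d also lie in Bcl2a1c, and Bcl2a1d was far higher (mean 11.04 in WT at 3 hr). How much of the Bcl2a1c level and likeness comes from shared reads was not tested.

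The promoters of the 3 close copies are shown because the copies share this stretch as well, although Bcl2a1a did not follow the other copies in every WT mouse (its values are given with the other pathway genes). They run from 250 bases before to 50 after the annotated start (RefSeq, GRCm38.p6). Capitals mark the only AP-1 heptamer (TGANTCA, both strands searched), which 7.8% of 32841 promoters of this length hold.
Bcl2a1b, chr9:89199023-89199322 (+): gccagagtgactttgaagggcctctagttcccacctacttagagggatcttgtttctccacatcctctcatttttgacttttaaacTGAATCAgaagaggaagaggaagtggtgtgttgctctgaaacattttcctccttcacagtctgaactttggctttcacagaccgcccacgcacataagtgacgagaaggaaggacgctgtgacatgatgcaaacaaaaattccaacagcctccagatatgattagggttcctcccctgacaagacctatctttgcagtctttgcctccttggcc
Bcl2a1d, chr9:88731801-88732100 (-): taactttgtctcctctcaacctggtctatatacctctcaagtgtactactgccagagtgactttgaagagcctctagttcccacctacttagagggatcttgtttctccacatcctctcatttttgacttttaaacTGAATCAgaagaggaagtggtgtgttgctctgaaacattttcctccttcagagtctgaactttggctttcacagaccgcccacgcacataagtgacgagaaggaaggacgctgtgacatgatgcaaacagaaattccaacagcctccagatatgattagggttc
Bcl2a1a, chr9:88956670-88956969 (+): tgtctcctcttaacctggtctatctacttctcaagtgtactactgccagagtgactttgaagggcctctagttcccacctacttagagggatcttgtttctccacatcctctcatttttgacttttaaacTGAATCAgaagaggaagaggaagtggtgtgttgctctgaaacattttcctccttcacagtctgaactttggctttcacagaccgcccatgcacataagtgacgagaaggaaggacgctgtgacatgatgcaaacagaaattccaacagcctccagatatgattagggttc
The best local alignment of the Bcl2a1b and Bcl2a1a windows covered 256 bases with 254 identical, that of Bcl2a1b and Bcl2a1d 256 bases with 247, and that of Bcl2a1a and Bcl2a1d 300 bases with 288. The heptamer lies 164 bases before the annotated start in Bcl2a1b, 114 in Bcl2a1d and 120 in Bcl2a1a. A match is a description of the letters, not of a bound site. No match to the NF-kB/Rel family consensus was found in the 3 windows; 8.5% of all promoters held one, as did 1 of the 3 annotated Bcl2l1 promoters. None of the other members' windows searched held one (that of Pmaip1 was not searched).

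Mcl1 (chr3:95656944-95663179) had a peak at 1 hr and a higher level again at 6 hr. It read 14.18, 14.27, 14.15 and 14.11 untreated, 15.59, 15.56, 15.61 and 15.51 at 1 hr, 14.39, 14.42, 14.45 and 14.37 at 3 hr and 15.20, 15.26, 15.22 and 15.18 at 6 hr, and no pair of neighbouring times overlapped in the order of their levels (1, 6, 9, 3 hr, untreated). The first rise was 1.39 ± 0.05 (2.62-fold, adjusted p = 2.11e-15), the fall from 1 to 3 hr was 1.16 (adjusted p = 1.84e-14), and the second rise, from 3 to 6 hr, was 0.80 (adjusted p = 1.07e-11). The rise at 1 hr (0.91), the fall to 3 hr (−1.28) and the second rise (0.56) kept their directions after quantile normalization. The level at 3 hr against untreated did not. It was 0.23 higher (adjusted p = 0.000215) on the deposited scale and 0.36 lower (adjusted p = 6.59e-06) after quantile normalization. The values at 6 and 9 hr shrank from 1.03 and 0.82 to 0.19 and 0.31.

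Bcl2l1, which encodes BCL-XL (chr2:152758732-152833803), rose more slowly. It read 11.92, 11.98, 11.97 and 12.13 untreated and 13.01, 12.98, 13.10 and 13.05 at 6 hr, its highest time, with the 2 groups apart. The difference grew from 0.41 ± 0.07 at 1 hr to 1.03 ± 0.07 at 6 hr (2.04-fold, adjusted p = 2.09e-11). It was 0.64 at 3 hr and 0.70 at 9 hr. After quantile normalization the 4 values were 0.22, 0.17, 0.36 and 0.28, all still called, and the step from 1 to 3 hr, 0.23 on the deposited scale and not called without mouse 25 (0.19, adjusted p = 0.0828), was −0.04.

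Bcl2 (chr1:106538176-106714290), the founding member, moved the other way. It read 7.99, 7.67, 8.09 and 7.83 untreated and 8.09, 7.86, 8.06 and 7.95 at 1 hr, groups that overlapped (difference 0.10, adjusted p = 0.422). It then fell by 0.55 ± 0.09 at 3 hr (−0.34 after quantile normalization) and by 1.32 ± 0.09 at 6 hr against untreated (adjusted p = 1.57e-11), where it read 6.58, 6.49, 6.51 and 6.71, below every untreated mouse. Between 6 and 9 hr it rose by 0.36 (adjusted p = 0.00169) to 6.92, 6.94, 6.90 and 6.96.

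Among the BH3-only genes, Bcl2l11 and Pmaip1 were highest at 1 hr and then dropped at different speeds. Bcl2l11 (chr2:128126038-128162547), which encodes BIM, read 11.73, 11.64, 11.64 and 11.53 untreated, 13.66, 13.37, 13.70 and 13.26 at 1 hr and 13.00, 13.23, 13.19 and 13.00 at 3 hr. It was 1.86 ± 0.08 above untreated at 1 hr (3.63-fold, adjusted p = 8.41e-14) and 1.47 above at 3 hr, fell by 1.80 between 3 and 6 hr (adjusted p = 1.55e-13), and lay below untreated by 0.33 at 6 hr and 0.49 at 9 hr (−0.79 and −0.81 after quantile normalization). In the order of its WT levels, 1, 3 hr, untreated, 6, 9 hr, no neighbours overlapped, although the step from 6 to 9 hr did not pass the test (−0.16, adjusted p = 0.102).

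Pmaip1, which encodes NOXA, a partner of MCL1, lost its rise by 3 hr. It read 9.30, 9.41, 9.26 and 9.31 untreated, 10.54, 10.74, 10.45 and 10.55 at 1 hr and 7.93, 8.39, 8.20 and 8.00 at 3 hr, so that the 3 groups lay apart in all 12 libraries. The rise at 1 hr was 1.25 ± 0.09 (2.38-fold, adjusted p = 9e-10) and the fall from 1 to 3 hr was 2.44 ± 0.09 (adjusted p = 7.4e-15), the largest step of any member after 1 hr. From 3 to 6 hr it rose by 0.31 (adjusted p = 0.00628; 0.26 and adjusted p = 0.0685 without mouse 87) and at 9 hr it was 0.66 below untreated.

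Bid (chr6:120893119-120917062), which is cut by caspase-8 to activate the pore formers, changed little. It read 10.09, 10.20, 10.08 and 10.15 untreated, 9.83, 9.80, 9.85 and 9.81 at 1 hr and 10.36, 10.54, 10.50 and 10.42 at 6 hr, and these 3 groups did not overlap. It was 0.31 ± 0.05 below untreated at 1 hr (adjusted p = 6.6e-05), 0.17 below at 3 hr and 0.32 above at 6 hr (1.25-fold, adjusted p = 8.11e-06). After quantile normalization the values at 3 and 6 hr were −0.27 and 0.15, both still called. The 0.15 at 9 hr was called with all mice and not without mouse 69 (0.14, adjusted p = 0.0595) or after quantile normalization (0.04, adjusted p = 0.511). The step from 1 to 3 hr (0.14) was not called without mouse 25, 88 or 87 (0.11 to 0.14, adjusted p = 0.0861 to 0.0979), nor that from 6 to 9 hr (−0.17) without mouse 69 (−0.15, adjusted p = 0.0704) or after quantile normalization (−0.11, adjusted p = 0.07).

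Of the pore formers, Bak1 rose and Bax did not pass the test. Bak1 (chr17:27019812-27028627) read 11.32, 11.48, 11.41 and 11.41 untreated, 11.81, 11.86, 11.84 and 11.86 at 3 hr and 12.40, 12.43, 12.47 and 12.48 at 6 hr, with the 3 groups apart. It rose by 0.44 ± 0.04 at 3 hr and 1.04 ± 0.04 at 6 hr (2.06-fold, adjusted p = 2.94e-15) and was 0.98 above untreated at 9 hr. After quantile normalization the rises were smaller, 0.10 at 3 hr (adjusted p = 0.0226), 0.52 at 6 hr and 0.68 at 9 hr, and the value at 1 hr, −0.08 and not called on the deposited scale, was a called fall of 0.25 (adjusted p = 2.63e-05). Its 6 and 9 hr levels overlapped on the deposited scale (difference −0.06, adjusted p = 0.217), and after quantile normalization that step was 0.16 (adjusted p = 0.00239). Bax (chr7:45461695-45466903) read 12.43, 12.57, 12.48 and 12.85 untreated and 12.67, 12.60, 12.62 and 12.73 at 6 hr, with all neighbouring times overlapping. Its differences from untreated were between 0.04 and 0.19, with 95% intervals that reached from −0.20 to 0.43 over the 4 times. After quantile normalization Bax was instead lower at 3, 6 and 9 hr (−0.51, −0.65 and −0.37, adjusted p = 0.000647, 4.17e-05 and 0.00815). Of its read windows 82.4% occur in no other gene, and the rest lie in the gene model Gm45808 too.

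Step by step after 1 hr, 5 members rose and 4 fell from 1 to 3 hr (28.0% and 32.1% of all genes), 5 rose and 2 fell from 3 to 6 hr (33.3% and 30.4%), and 1 rose and 5 fell from 6 to 9 hr (23.5% and 27.9%). The member that rose in the last step was Bcl2; those that fell were Bcl2l1, Mcl1, Bcl2a1b, Bcl2a1d and Bid. After quantile normalization the splits were 4 and 5 in the step from 1 to 3 hr and 2 and 2 in that from 6 to 9 hr.

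**Figure D2:**
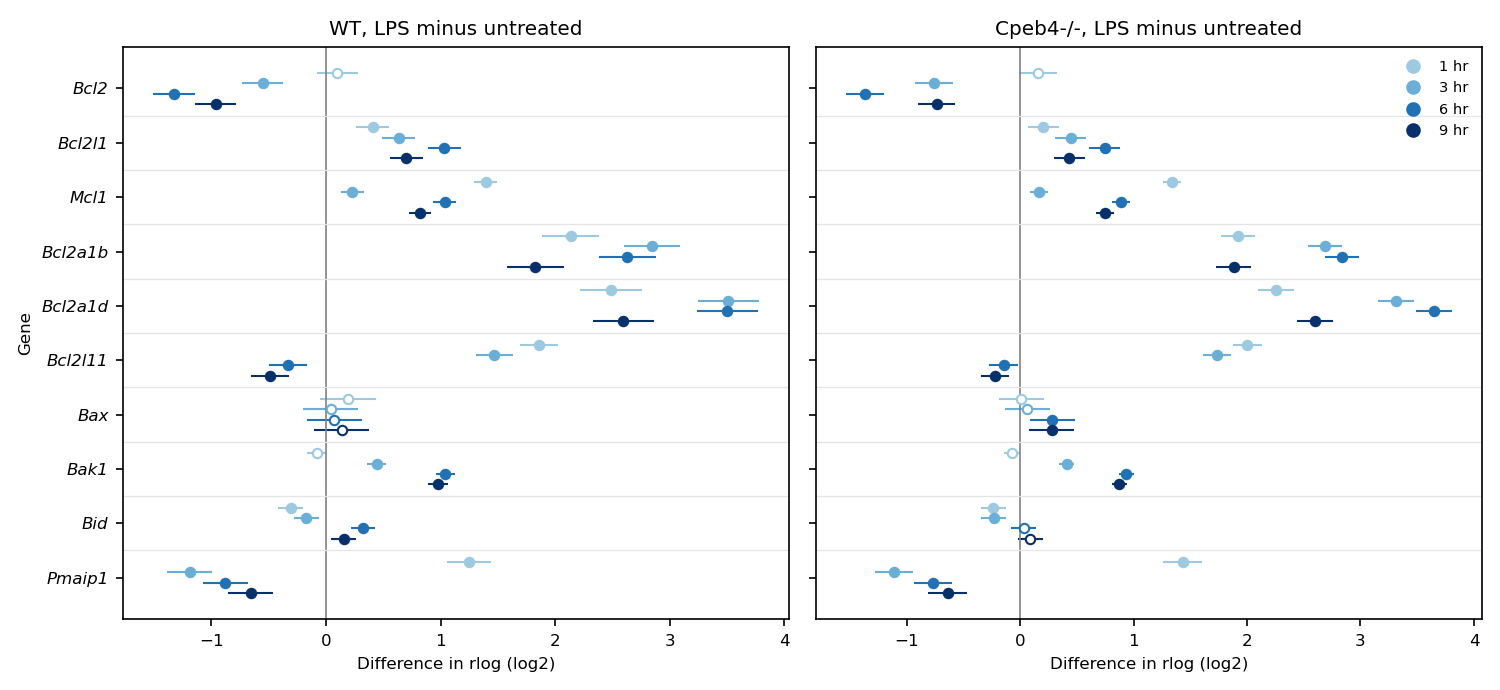
Difference in rlog (log2) from untreated cells at 1, 3, 6 and 9 hr of LPS for the 10 members, in WT mice (left) and Cpeb4-/- mice (right). Points are limma estimates from 4 mice a time, bars are 95% intervals, and filled points have an adjusted p under 0.05; in both panels the Bcl2a1 genes lie farthest to the right and Bcl2 and Pmaip1 farthest to the left, down to −1.32 and −1.19 in WT.

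In Cpeb4-/- BMDMs the same comparison called 34 of 40 member values, as it did in WT (13116 genes tested). Rises were called for 6 members at each of the 4 times, beside 23.8%, 34.4%, 39.0% and 36.4% of all genes, and falls for 1 member at 1 hr and for 3 at each later time, beside 20.0%, 36.9%, 40.1% and 36.4%. Bcl2a1d rose by 3.65 ± 0.07 at 6 hr (12.5-fold), Mcl1 by 1.34 ± 0.04 at 1 hr, Bcl2l11 by 2.00 ± 0.06 at 1 hr and Pmaip1 by 1.43 ± 0.08 at 1 hr, and Bcl2 fell by 1.37 ± 0.08 at 6 hr. Bax differed from untreated by 0.28 at 6 hr (adjusted p = 0.00912) and 9 hr (adjusted p = 0.012); without mouse 62 the value at 6 hr was 0.22 (adjusted p = 0.0798), and after quantile normalization Bax was lower, by 0.37 at 6 hr and 0.18 at 9 hr (adjusted p = 0.00249 and 0.117). Bid did not pass the test at 6 hr (0.03) or 9 hr (0.09, adjusted p = 0.131; adjusted p = 0.0486 with the mouse as a block, where Bcl2 at 1 hr, 0.16, was called too at 0.0393). The fall of Bcl2l11 at 6 hr, 0.15, was not called without mouse 62 or 55 (−0.10 and −0.16, adjusted p = 0.201 and 0.0822) or in the unblocked fit of all 40 libraries (adjusted p = 0.0635), while after quantile normalization it was −0.60 (adjusted p = 1.96e-09). Nor was the rise of Bcl2l1 at 1 hr, 0.21, called without mouse 3 or 2 (0.16 and 0.17, adjusted p = 0.101 and 0.0614). After quantile normalization Bcl2l1 was −0.01, 0.02, 0.15 and 0.06 at the 4 times, of which the value at 6 hr was called. Mcl1 at 3 hr was −0.42 on that scale, Bax at 3 hr −0.43 (adjusted p = 0.000634), Bak1 at 1 hr −0.24 (adjusted p = 2.27e-06) and Bcl2 at 1 hr 0.21 (adjusted p = 0.0349). Rises and falls numbered 6 and 2 at 1 hr, 4 and 5 at 3 hr, 5 and 4 at 6 hr, and 4 and 3 at 9 hr.

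The question the knockout addresses is how loss of CPEB4 alters the LPS response, so the genotypes were compared at each time (limma on 8 libraries). Bcl2l11 was higher in Cpeb4-/- cells at 3, 6 and 9 hr, Bcl2l1 was lower at 6 and 9 hr, and Bid and Bak1 were lower at 6 hr. None of these differences exceeded 0.35. No member was called in untreated cells or at 1 hr, where 0.741% and 0.976% of all genes were called higher and 0.565% and 0.938% lower in Cpeb4-/- cells. At an unadjusted p under 0.05 there were 0, 3, 3, 5 and 4 members at the 5 times, beside 17.6%, 35.3%, 23.4%, 30.3% and 26.9% of all genes. 1 member was higher and 0 were lower at 3 hr (beside 1.81% and 1.87% of genes), 1 and 3 at 6 hr (6.40% and 9.92%), and 1 and 1 at 9 hr (4.69% and 3.22%). The median member difference was −0.11, −0.01 and −0.05 at these 3 times, and that of all genes was 0.0077, −0.0153 and 0.0044.

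Bcl2l11 read 13.34, 13.47, 13.41 and 13.35 in the Cpeb4-/- mice and 13.00, 13.23, 13.19 and 13.00 in the WT mice at 3 hr, 11.66, 11.40, 11.47 and 11.52 and 11.27, 11.29, 11.33 and 11.32 at 6 hr, and 11.53, 11.42, 11.38 and 11.43 and 11.11, 11.21, 11.10 and 11.15 at 9 hr. At each of these times all 4 Cpeb4-/- mice lay above all 4 WT mice (exact permutation p = 0.0286 each), while the groups overlapped in untreated cells and at 1 hr. The share of all genes whose groups lay apart was not counted, here or for the members below. The exact test uses the same libraries as limma and adds no separate evidence. The differences were 0.29 ± 0.06 (1.22-fold, adjusted p = 0.0403), 0.21 ± 0.05 (adjusted p = 0.0158) and 0.29 ± 0.05 (1.23-fold, adjusted p = 0.0081), and within batches 1 and 2 they were 0.29 and 0.29, 0.25 and 0.17, and 0.31 and 0.28. The call at 9 hr held in all 15 alternatives and that at 6 hr in 13 (lost without a filter or a variance trend, adjusted p = 0.061 and 0.0526), whereas that at 3 hr held in 6. It was lost without a filter, without a variance trend, with batch as a covariate, and without mouse 3, 25, 62, 2, 55 or 87, where the difference was 0.25 to 0.31 and the adjusted p reached 0.122.

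Bcl2l1 read 12.75, 12.68, 12.68 and 12.77 in the Cpeb4-/- and 13.01, 12.98, 13.10 and 13.05 in the WT mice at 6 hr, and 12.41, 12.26, 12.52 and 12.44 against 12.67, 12.67, 12.82 and 12.65 at 9 hr. The groups lay apart at both times. Cpeb4-/- cells were lower by 0.31 ± 0.04 at 6 hr (fold 0.805, adjusted p = 0.00067) and by 0.29 ± 0.06 at 9 hr (fold 0.815, adjusted p = 0.0215), and within batches 1 and 2 the values were −0.28 and −0.35 at 6 hr and −0.33 and −0.26 at 9 hr. The call at 6 hr held in all 15 alternatives; that at 9 hr held in 9 and was lost without a filter (adjusted p = 0.0602) and without mouse 3, 25, 62, 69 or 87, where the adjusted p reached 0.0651. At 1 and 3 hr the differences were −0.23 and −0.22 (adjusted p = 0.0896 and 0.151).

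Bid at 6 hr read 10.13, 9.99, 10.11 and 10.21 in the Cpeb4-/- and 10.36, 10.54, 10.50 and 10.42 in the WT mice, with the groups apart. The difference was −0.35 ± 0.06 (fold 0.787, adjusted p = 0.00192; −0.39 and −0.30 within batches 1 and 2) and was called in all 15 alternatives. Bak1 at 6 hr read 12.31, 12.28, 12.29 and 12.31 against 12.40, 12.43, 12.47 and 12.48, a difference of −0.15 ± 0.04 (adjusted p = 0.0137) called in 14 of 15 alternatives and not after quantile normalization (−0.10, adjusted p = 0.085). At 9 hr Bak1 differed by the same −0.15 and the groups again lay apart, but the adjusted p was 0.0672. The groups of Mcl1 at 6 hr (−0.11, adjusted p = 0.0883) and of Bid at 3 hr (−0.11, adjusted p = 0.214) lay apart without a call as well. Bcl2 at 9 hr was another member whose groups lay apart without a call: 7.24, 7.26, 7.17 and 7.08 in Cpeb4-/- and 6.92, 6.94, 6.90 and 6.96 in WT mice, a difference of 0.26 ± 0.07 (adjusted p = 0.0517; called in 7 of 15 alternatives).

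For the other members the intervals bound what these libraries can show. The 95% interval of the genotype difference over the 5 times lay within −0.21 and 0.13 for Mcl1 and within −0.28 and 0.23 for Pmaip1. At 6 hr that of Mcl1 held negative values only, −0.21 to −0.02. Intervals were wider early on for Bcl2a1b (−0.60 to −0.07 at 1 hr and −0.52 to −0.05 at 3 hr) and Bax (−0.61 to −0.03 at 1 hr). None of these differences was called. Leaving out mouse 88 raised the number of members called at 3 hr from 1 to 4, adding Bcl2l1, Bcl2a1b and Bcl2a1d. Leaving out mouse 69 raised that at 1 hr from 0 to 2, Bcl2l1 and Bcl2a1b, and leaving out mouse 2 raised that at 9 hr from 2 to 4, adding Bcl2 and Bak1. With all 40 libraries in one fit and the mouse as a block, 14 member values were called in place of 7. The additions were Bcl2l1, Bcl2a1b and Bax at 1 hr, Bcl2l1 at 3 hr, Mcl1 at 6 hr (−0.11, but 0.0038 after quantile normalization), and Bcl2 and Bak1 at 9 hr. In that fit 4323 genes were called at 1 hr in place of 251. The share of all genes called is not given for its other times or for the fits without a mouse. The member counts of those fits therefore do not show a change particular to the family. The summed macrophage markers were lower in Cpeb4-/- cells at all 5 times, with no overlap between genotypes: 18.65 to 18.91 against 18.98 to 19.29 in untreated cells, 18.88 to 19.10 against 19.24 to 19.49 at 1 hr, 18.81 to 19 against 19.28 to 19.32 at 3 hr, 18.92 to 19.14 against 19.24 to 19.32 at 6 hr and 18.94 to 19.14 against 19.22 to 19.28 at 9 hr. Each sum adds unlogged levels, so the most abundant marker weighs most. Single macrophage markers are not given here, so the sum does not show how many of them were lower. From flow cytometry of myeloid markers, the study reported no major differentiation defect in Cpeb4-/- BMDMs. The dendritic cell sum lay apart at 3 hr (4.71 to 4.94 in Cpeb4-/- and 3.70 to 4.10 in WT) and the T cell sum at 9 hr (5.85 to 6.50 and 6.51 to 6.77). The fibroblast sum at 9 hr reached 6.07 in Cpeb4-/- and 4.66 in WT. The part of these markers in the member differences was not tested.

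**Figure D3:**
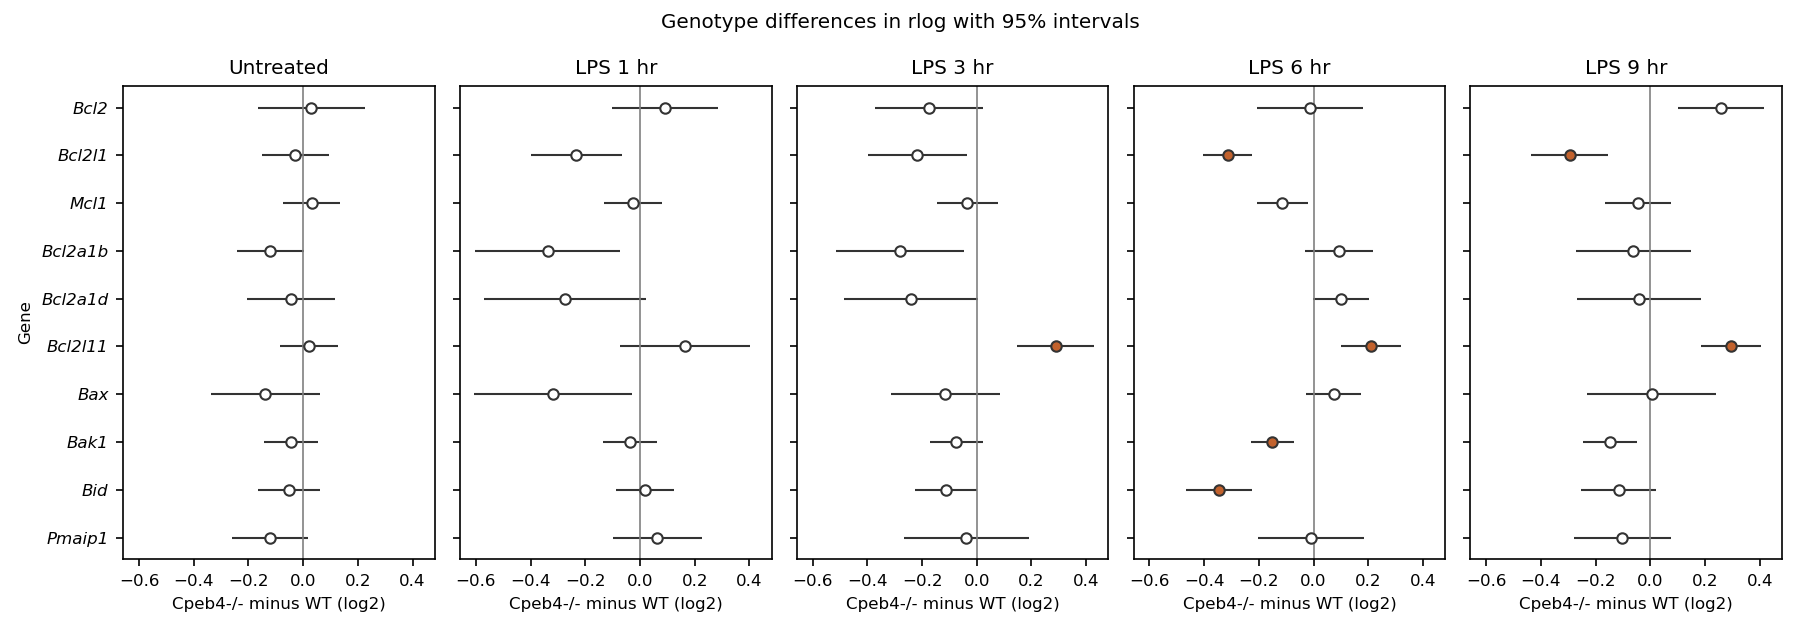
Difference in rlog (log2), Cpeb4-/- minus WT, for the 10 members at each of the 5 times. Points are limma estimates from 4 mice a genotype, bars are 95% intervals, and filled points have an adjusted p under 0.05; Bcl2l11 lies to the right at 3, 6 and 9 hr and Bcl2l1 to the left at 6 and 9 hr.

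Whether the response to LPS itself differed between genotypes was tested by the interaction of genotype and time in 1 model of 40 libraries. Of the 40 member values 1 was called, Bid at 6 hr: its change from untreated was 0.32 in WT and 0.03 in Cpeb4-/- cells, a difference of −0.29 ± 0.07 (adjusted p = 0.0175). Of all genes, 0.00763%, 0.206%, 2.94% and 1.76% were called at the 4 LPS times. At an unadjusted p under 0.05, 1, 1, 4 and 3 members passed at the 4 times, beside 1.57%, 5.03%, 15.1% and 12% of all genes. With the mouse as a block 3 members were called at 6 hr, Bid (adjusted p = 0.00121), Bcl2l1 (−0.29, adjusted p = 0.0349) and Mcl1 (−0.15, adjusted p = 0.0435). The call for Bid was lost without mouse 3, 62, 2 or 69 and after quantile normalization, with differences of −0.31 to −0.23 over the alternatives and an adjusted p of up to 0.0916. For Bcl2l11 at 9 hr the difference between the LPS responses was 0.27 ± 0.10 (adjusted p = 0.193) and for Bcl2l1 −0.27 ± 0.10 (adjusted p = 0.183), neither past the threshold.

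Bcl2a1a, a close copy of A1 that is no member of the set, stood out among the other genes of the pathway. In untreated cells it read 3.41, 3.51, 3.53 and 3.44 in WT and 3.76, 3.78, 3.56 and 3.76 in Cpeb4-/- mice. At 6 hr the WT mice 25, 88, 69 and 87 read 4.26, 8.28, 4.27 and 4.03, and the Cpeb4-/- mice 8.30, 8.29, 8.18 and 8.27. In WT mouse 88 it was also high at 1, 3 and 9 hr (6.43, 7.28 and 7.39, beside 5.97 to 6.13, 7.31 to 7.57 and 7.39 to 7.69 in the Cpeb4-/- mice), while WT mice 25, 69 and 87 stayed between 3.61 and 4.33 at all LPS times. Cpeb4-/- exceeded WT by 2.45 ± 0.58 at 3 hr, by 3.05 ± 0.72 at 6 hr and by 2.68 ± 0.64 at 9 hr (adjusted p = 0.0457, 0.014 and 0.03). Within batches 1 and 2 it was 1.67 and 3.23, 2.02 and 4.08, and 1.75 and 3.61. Without mouse 88 it was 3.20, 4.07 and 3.51 (adjusted p = 1.43e-07, 1.14e-09 and 1.52e-06), and the exact permutation p with all mice was 0.0286, 0.0857 and 0.0571. The calls at 6 and 9 hr were lost without a filter or without a variance trend (adjusted p = 0.0582 to 0.121), and that at 9 hr also without mouse 3, 25, 62, 55, 69 or 87 (adjusted p of up to 0.096). Bcl2a1b and Bcl2a1d of mouse 88 showed no such gap: at 6 hr they were 13.16 and 11.14, beside 12.87 to 12.99 and 10.93 to 11.06 in the other WT mice. Of the 770 read windows of Bcl2a1a, 31.0% occur in no other gene. On the mixed background of these mice, whether the level of Bcl2a1a follows the strain origin of its locus or the loss of CPEB4 was not tested.

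**Figure D4:**
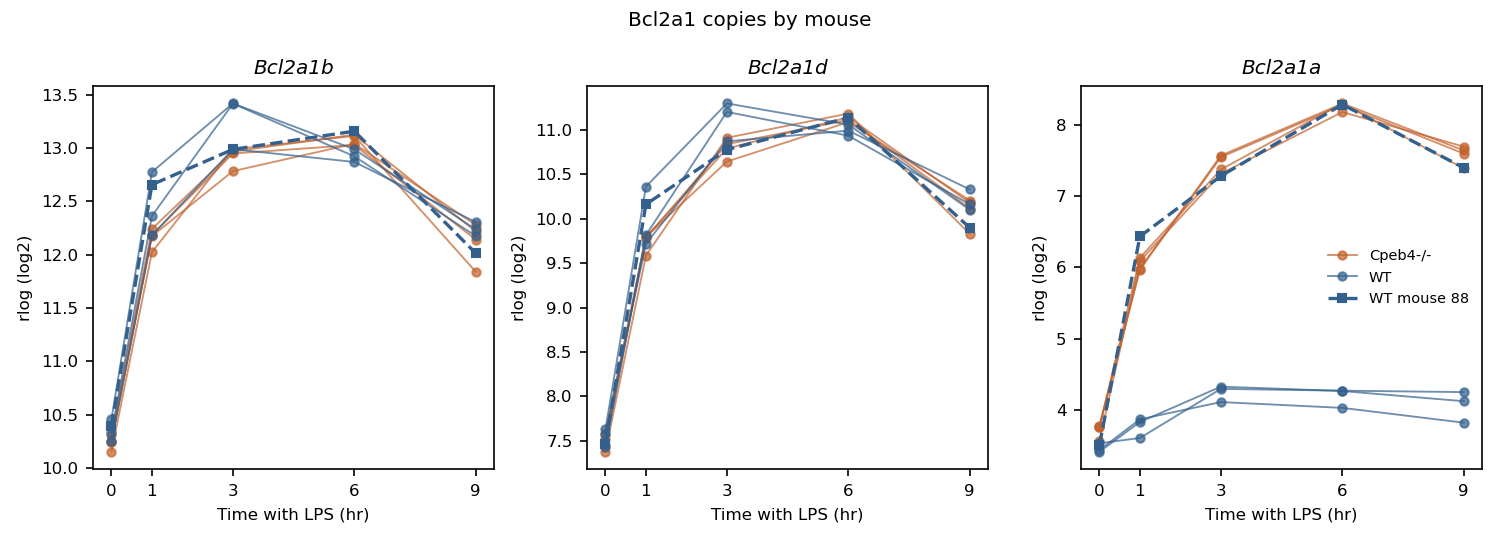
rlog (log2) of Bcl2a1b, Bcl2a1d and Bcl2a1a in every mouse against the time with LPS in hr (y axes differ). Each line is 1 mouse, WT in blue and Cpeb4-/- in orange, with WT mouse 88 dashed; for Bcl2a1a that mouse follows the Cpeb4-/- mice, up to 8.28 at 6 hr, while the other 3 WT mice stay at or below 4.33.

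Another 48 genes of the pathway were followed, of which 42 passed the filter on low values in the WT fit; Hrk, Bcl2l10, Bcl2l14, Usp13, Bok and Bcl2l15 did not. In WT mice 8 rose and 5 fell at 1 hr, 12 and 21 at 3 hr, 17 and 19 at 6 hr, and 19 and 17 at 9 hr. Of all genes tested, 17.3% rose and 16.6% fell at 1 hr and 32.5% and 35.3% at 3 hr. At 6 hr the shares were 38.7% and 39.2%, and at 9 hr 35.9% and 35.6%. Among the largest rises, beside that of Bcl2a1c, were those of Cdkn1a, the p53 target that encodes p21 (2.36 ± 0.06 at 3 hr, adjusted p = 1.6e-17), and March5, a mitochondrial ubiquitin ligase that controls MCL1 turnover (2.18 ± 0.06 at 6 hr, adjusted p = 7.22e-18). The largest falls were of Bmf, a BH3-only gene, which read 9.31, 9.32, 9.11 and 9.24 untreated and 6.10, 5.60, 5.90 and 6.13 at 6 hr (−3.32 ± 0.10, adjusted p = 8.54e-17), Trp53inp1, a p53-induced gene (−2.30 ± 0.12 at 3 hr), Foxo3, a transcription factor of Bcl2l11 (−1.71 ± 0.15 at 3 hr), and E2f1 (−1.66 ± 0.08 at 6 hr). The lists are described at 6 hr, where 38.7% of all genes rose and 39.2% fell. Of the genes of MCL1 turnover, 5 of 5 tested rose. Of 3 other guardians 2 rose and 0 fell, of 4 other BH3-only and effector genes 0 rose and 3 fell, and of 4 atypical family genes 1 rose and 2 fell. Among the 12 genes of the mitochondrial death machinery 5 rose and 6 fell, among the 10 p53-axis genes 3 and 5, and among the 4 other regulators of BH3-only genes 1 and 3.

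**Figure D5:**
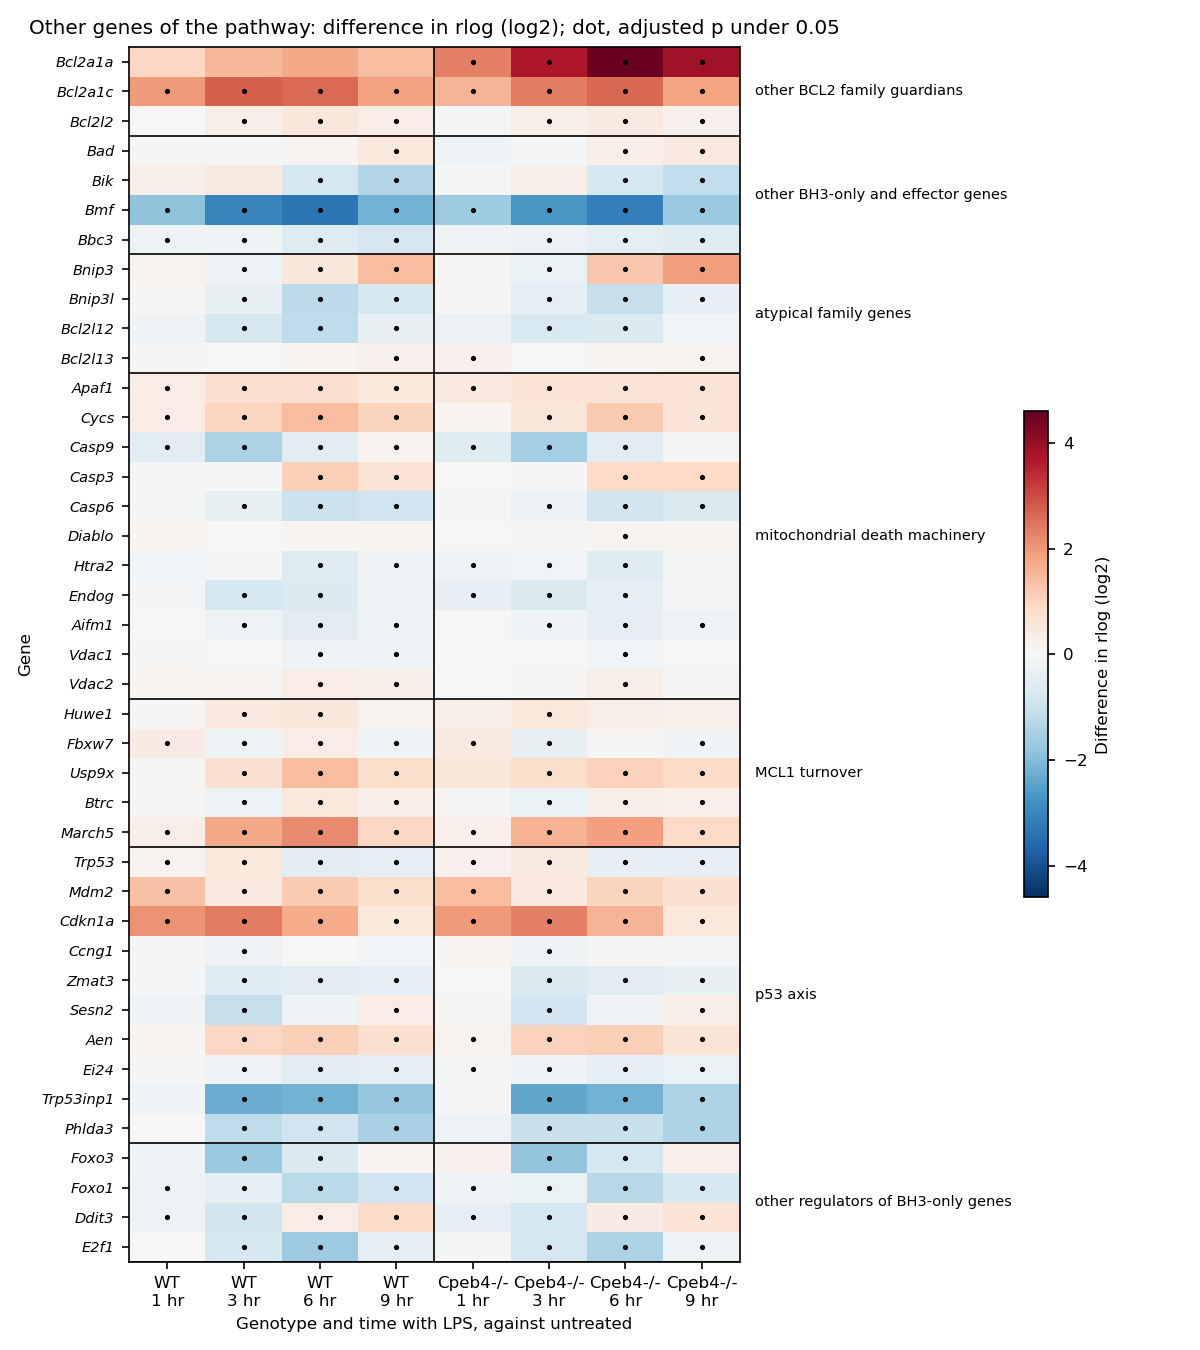
Difference in rlog (log2, colour) from untreated cells for the other pathway genes shown, by list, at 1, 3, 6 and 9 hr of LPS in WT (left) and Cpeb4-/- (right) mice. Dots mark an adjusted p under 0.05; Bmf is the deepest blue row, down to −3.32 in WT at 6 hr.

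Comparing genotypes at 6 hr, 9 of the 42 genes tested were called, 4 higher and 5 lower in Cpeb4-/- cells, beside 6.40% and 9.92% of all genes. The count was 7 of 42 at 9 hr (5 higher and 2 lower, beside 4.69% and 3.22%). At the earlier times 43 were tested. In untreated cells 0 were called, where 0.741% of all genes were higher and 0.565% lower. At 1 hr 0 were higher and 1 lower (beside 0.976% and 0.938%), and at 3 hr 1 and 0 (1.81% and 1.87%). After Bcl2a1a the largest differences at 6 hr were of Bnip3, a mitophagy receptor of the family (0.66 ± 0.10, adjusted p = 0.00156), Phlda3 (−0.41 ± 0.09, adjusted p = 0.0132), March5 (−0.32 ± 0.06, adjusted p = 0.00454) and Fbxw7, part of a ubiquitin ligase for MCL1 (−0.26 ± 0.05, adjusted p = 0.00776). At 9 hr they were of Bnip3 (0.44), Trp53inp1 (0.44), Ddit3 (−0.43), which encodes CHOP, and Bmf (0.40 ± 0.09, adjusted p = 0.0288). Bnip3, March5 and Fbxw7 were called in all 15 alternatives at 6 hr, and Phlda3 in 14, lost without a filter (adjusted p = 0.0554). At 9 hr Bmf was not called without mouse 3, 25, 62, 55 or 69 (adjusted p of up to 0.095), without a filter (adjusted p = 0.0689) or after quantile normalization (0.34, adjusted p = 0.0564). Bnip3, Trp53inp1 and Ddit3 at 9 hr were each lost without at least 2 of the mice in turn, Bnip3 and Ddit3 also without a filter (adjusted p = 0.0854 and 0.071) and Bnip3 without a variance trend (adjusted p = 0.0516).

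The members also differ in the 3′ untranslated elements that ARE-binding and CPE-binding proteins read. In the longest annotated 3′ untranslated region, Bcl2 held 15 ATTTA pentamers, Mcl1 8, Bcl2l11 6, Pmaip1 4 and Bcl2l1, Bcl2a1b and Bcl2a1d 1 each, and Bax, Bak1 and Bid none, beside a median of 2 over 11958 genes. CPEs (TTTTAT or a variant of it, on the mRNA strand, where they can overlap an ATTTA) numbered 19 in Pmaip1, 8 in Bcl2 and Bcl2l11, 3 in Mcl1 and Bid, 2 in Bcl2l1 and 1 in the others, beside a median of 3; 77.3% of genes held at least 1. The regions are 5086 bases long in Bcl2 and 147 in Bcl2a1b, and the counts are not scaled to length. The 30-base windows with the most pentamers are shown for the 3 members that hold the most of them and for Bcl2a1b, whose window Bcl2a1d shares (mm10, pentamers in capitals).
Bcl2, chr1:106543002-106543031 (-): ATTTAggaaaaaaaagATTTATTTATTTAa
Mcl1, chr3:95662590-95662619 (+): ATTTAtccttgatcatagtttgcttATTTA
Bcl2l11, chr2:128161350-128161379 (+): tgtatATTTAttttccgcttATTTAaatgt
Bcl2a1b, chr9:89207730-89207759 (+): cttggcatttccATTTAcaaacatgaaact
The window of Bcl2, with 4 ATTTA, starts at base 233 after the stop codon. That of Mcl1 starts at base 1767, that of Bcl2l11 at 3021, and that of Bcl2a1b, with a single pentamer, at 50. Whether any of these pentamers was bound was not measured in these libraries.

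The genes whose 10 group means (2 genotypes by 5 times) most resembled a member's were, for Bcl2, Cnnm2 and Kdsr (r = 0.995 each), for Bak1, H2-T22 and Uba7 (r = 0.997 each), and for Bcl2l11, Gpr132 (r = 0.985). Pmaip1 was most like Chka (r = 0.975), Mcl1 most like Scx (r = 0.973), with Mdm2 at 0.968, and Bcl2l1 most like G530011O06Rik (r = 0.975), with Cycs, which encodes cytochrome c, at 0.96. Besides Bcl2a1c, Bcl2a1b was followed by Slfn2 (0.992) and Bcl2a1d by P2ry2 (0.99). These are descriptions over 10 points that share libraries, among 3634 genes whose group means vary by an SD of at least 0.5. The members were left out of these genes, so likeness between members, such as Bcl2a1b and Bcl2a1d, is not ranked here.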

How the data were processed

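RNA-seq values of 40 libraries from BMDMs of 8 mice were used. Per the labels and the study's methods, the authors made poly(A) libraries (NEBNext Ultra II, 8 PCR cycles), aligned reads to mm10 with STAR 2.3.0e, counted them per gene with featureCounts and deposited rlog values of DESeq2, which are on a log2 scale. The strand setting, the annotation and the handling of reads that fit several places are not given in the sources used here, and the depth is unknown, so no counting interval is given.

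From these values, limma 3.58.1 (R 4.3.3; linear model with an intensity trend) was fitted to genes whose rlog averaged 2.32 or more over the fitted libraries. WT and Cpeb4-/- time courses were fitted apart (20 libraries each), the genotypes at each time on 8 libraries, and the interaction of genotype and time on all 40. Adjusted p is by Benjamini-Hochberg over all genes of a fit, called under 0.05; values after ± are SE. Exact permutation tests were two-sided. The members and gene lists were chosen with earlier results of these data known. Other pathway genes were named by rule: the 4 largest called rises and falls in WT at any LPS time, and up to 5 called between genotypes at 6 and at 9 hr. 1 gene that the rule named is not reported here. Values chosen after they were seen are those of Bcl2a1a at 1 and 3 hr. On simulated data with 200 changed genes, 174 (genotype, 6 hr), 185 (WT, 3 hr) and 155 (interaction, 6 hr) were recovered, with 9, 11 and 9 false calls. The planted changes were larger than any genotype difference of a member. The simulated libraries were independent, without mouse pairing or batches. These numbers therefore do not show how often smaller differences are found, or how many false calls paired libraries give.

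Each mouse gave all 5 times, so mice pair the libraries: deviations from group means correlated with a median r of 0.29 between times of a mouse (68 of 80 pairs over 0.1) and −0.091 between mice. The alternatives were another filter or none, no trend, quantile normalization, batch as a covariate, the mouse as a block, 1 fit of all libraries, and leaving out each mouse. Read windows and 3′ elements came from GENCODE M21 transcripts, and promoters from RefSeq (GRCm38.p6). A CPE was TTTTAT, or TTTTAAT or TTTTAAAT or TTTTACT or TTTTCAT or TTTTAAGT or TTTTGT, matched on 1 strand with overlaps counted.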

Additional observations from a re-analysis of the deposited data

Results flagged for a closer look

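Among the 10 members, 3 of 100 groups of 4 mice held a mouse far from the others by Dixon's test; chance alone gives about 1 in 20. Bcl2 at 1 hr was 8.291 in Cpeb4-/- mouse 3 and 7.99 to 8.024 in the others. Bcl2l1 at 9 hr was 12.82 in WT mouse 69 and 12.65 to 12.67 in the others. Bcl2a1d at 1 hr was 9.585 in Cpeb4-/- mouse 62 and 9.783 to 9.796 in the others.

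For Bcl2a1a, 5 of 10 groups held such a mouse. WT mouse 88 read 6.433 at 1 hr (others 3.606 to 3.869), 7.279 at 3 hr (4.11 to 4.326), 8.282 at 6 hr (4.028 to 4.27) and 7.394 at 9 hr (3.821 to 4.25), and untreated Cpeb4-/- mouse 2 read 3.564 (3.762 to 3.778).

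The interaction of genotype and time in limma was called for 5 of the genes named. Of all genes, 2.94% were called at 6 hr and 1.76% at 9 hr. Bid differed by −0.29 ± 0.07 at 6 hr (adjusted p = 0.0175), a call lost in the alternatives named above. For the other genes the alternatives of the interaction are not given here. March5 differed by −0.30 (adjusted p = 0.0168) and Fbxw7 by −0.28 (adjusted p = 0.0286) at 6 hr, Bnip3 by 0.71 at 6 hr (adjusted p = 0.00381), and Bmf by 0.47 at 9 hr (adjusted p = 0.0364).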

How the results depend on the processing

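Of 40 member values each, 34 were called in the WT and 34 in the Cpeb4-/- time course, and the alternatives gave 33 to 37 and 32 to 36; for the 30 consecutive steps in WT, 22 became 20 to 23. Between genotypes 7 of 50 were called; the replicate block of the mouse and the unblocked fit of all 40 libraries both gave 14, and leaving out each mouse gave 5 to 10. In the interaction 1 of 40 was called, 3 with the mouse as a block, 0 after quantile normalization, and 0 to 1 without each mouse. With the pairing by mouse, Bcl2 at 1 hr and Bid at 9 hr were also called in Cpeb4-/- cells and Pmaip1 from 6 to 9 hr in WT (0.22, adjusted p = 0.0199). Besides these and the additions between genotypes and in the interaction named above, the block changed no member call. The member counts of the alternatives are not set beside the share of all genes called in each.

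Among member values called in the fits above or in the alternative, only quantile normalization turned a direction. Values called in neither also changed sign when a mouse was left out. Over all mice left out in turn, this held for 5 values between times, 17 between genotypes and 13 in the interaction. Quantile normalization changed the sign of 5, 4 and 1 such uncalled values. Where a call was involved, quantile normalization gave Bcl2l1 −0.0052 (Cpeb4-/-, 1 hr) and −0.042 (WT, 3 against 1 hr). Mcl1 was −0.42 (Cpeb4-/-, 3 hr), −0.36 (WT, 3 hr) and 0.12 (WT, 9 against 6 hr), and Bak1 was 0.16 (WT, 9 against 6 hr). Bax was −0.43, −0.37 and −0.18 at 3, 6 and 9 hr in Cpeb4-/- cells and −0.51, −0.65 and −0.37 in WT. It moved the median difference of all genes by at most 0.07, and the cause was not tested. The number of reads behind a value is unknown, so precision is set by 4 mice a group.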
